A study of Mus musculus with 3 samples.

Results

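The genes described here are 10 members of the Notch pathway: the receptor genes Notch1, Notch2, Notch3 and Notch4, the ligand gene Jag1, the DNA-binding factor gene Rbpj, the coactivator genes Maml1, Maml2 and Maml3, and the target gene Hes1. They were taken as a named list, out of the 21887 protein-coding genes of the autosomes, X and Y. Every peak whose summit lay in the RefSeq span of a member, or within 50 kb of either end, was counted for it. This gave 23 of 5207 Foxc1 peaks and 16 of 2878 Foxc2 peaks.

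The peaks come from chromatin immunoprecipitation followed by sequencing (ChIP-seq) of kidney glomeruli, the capillary filters of the kidney. The glomeruli were isolated with magnetic beads from adult C57BL/6 mice aged 8 weeks. The labels name no genotype other than this strain and no treatment. They list 3 libraries: 1 made with the antibody Foxc1 (D8A6, CST), 1 with the antibody Foxc2 (AF6989, R&D Systems) and 1 of input DNA, which was not analysed here. Foxc1 and Foxc2 are related forkhead transcription factors, and by its title the series is about podocytes, epithelial cells whose foot processes cover the glomerular capillaries. No library was replicated, so no spread could be measured and no comparison below carries a test. Sequencing depth is unknown, so a missing peak says only that none was called in that library.

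Whole glomeruli hold podocytes, endothelium and mesangial cells, and peaks cannot tell in which of these a factor was bound. Peak lists hold no expression, so they cannot check which cells were present. Marker genes are described only by how many carried peaks. Among 8 podocyte markers, Foxc1 summits lay at 8 and Foxc2 summits at 7. The corresponding counts were 2 and 1 of 6 for endothelium, 3 and 1 of 4 for mesangium, 2 and 2 of 6 for tubules and 0 and 1 of 4 for immune cells. Over all protein-coding genes, a Foxc1 summit within 50 kb was found at 29.3% and a Foxc2 summit at 23.2%.

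Notch receptors are membrane proteins that are cut when a ligand of the Jagged or Delta-like kind on a neighbouring cell binds them. The freed intracellular domain enters the nucleus, joins the DNA-binding protein Rbpj and recruits a Mastermind-like coactivator (Maml1, Maml2 or Maml3), and genes such as Hes1, a repressor of transcription, are switched on. In the kidney, Notch signalling takes part in forming the proximal nephron, Notch2 being the receptor known to be needed, and its renewed activity in mature podocytes has been linked to glomerular disease.

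The Foxc2 peaks that touched the promoters of the members themselves lay at 3 genes, and these promoters are shown first because a peak covers an annotated start site there. The promoter table used covers 9 of the 10 members, with 11 start sites. Hes1 is the member without an entry. The 250 bases before the start of each of these 3 genes are given in transcription direction (RefSeq, GRCm38.p6, the assembly also called mm10). For Rbpj, only those before its first start, at 53590346, are shown. Capitals mark a match to either of 2 kinds of motif on either strand. The first is a forkhead motif of 7 letters in any of 8 forms (GTAAACA as well as GTAAATA, further GCAAACA as well as GCAAATA, further ATAAACA as well as ATAAATA, and further ACAAACA as well as ACAAATA). The second is TGGGAA, the core of the site bound by Rbpj. No match of one kind overlapped a match of the other in these sequences.
Maml3, chr3:52105007-52105256, minus strand: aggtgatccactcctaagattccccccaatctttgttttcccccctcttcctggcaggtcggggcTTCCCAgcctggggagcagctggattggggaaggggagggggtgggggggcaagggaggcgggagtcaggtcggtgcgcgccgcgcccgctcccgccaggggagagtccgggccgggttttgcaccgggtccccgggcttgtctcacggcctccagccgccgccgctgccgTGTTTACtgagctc
Notch2, chr3:98013288-98013537, plus strand: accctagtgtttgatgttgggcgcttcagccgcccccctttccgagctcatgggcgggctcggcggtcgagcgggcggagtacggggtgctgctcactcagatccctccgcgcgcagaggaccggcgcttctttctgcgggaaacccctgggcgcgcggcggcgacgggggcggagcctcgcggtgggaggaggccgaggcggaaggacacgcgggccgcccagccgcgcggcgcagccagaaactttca
Rbpj, chr5:53590096-53590345, plus strand: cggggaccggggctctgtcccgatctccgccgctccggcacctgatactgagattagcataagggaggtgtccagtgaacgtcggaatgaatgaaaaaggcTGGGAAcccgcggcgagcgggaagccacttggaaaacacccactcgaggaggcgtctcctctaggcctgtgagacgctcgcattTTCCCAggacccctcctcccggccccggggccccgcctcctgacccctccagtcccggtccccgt

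The Maml3 promoter holds the forkhead form GTAAACA, read on the opposite strand as TGTTTAC, beginning 14 bases before the start and 73 bp from the Foxc2 summit. A TGGGAA match begins 185 bases before the start. The Notch2 promoter holds neither motif. The Rbpj promoter holds TGGGAA beginning 149 and 65 bases before its first start, and no forkhead form. Both matches lie outside the Foxc2 peak, which covers 12 of the 250 bases printed for Rbpj and extends past the start. Of the 250 bases before the second start of Rbpj, which are not printed, that peak covers 152. The Foxc2 peaks at the other promoters cover 239 of the bases printed for Notch2 and all 250 of those for Maml3. In windows of 300 bases, the 250 before a start and the 50 after it, forkhead forms were found in 3 of the 11 windows of members: that of Maml3 and both windows of Maml2, which no peak touched. Over all 21263 windows of protein-coding genes, 24.1% held a forkhead form, 3.01% held GTAAACA and 24.5% held TGGGAA. Among the 286 windows under a Foxc1 peak, 43.7% held a forkhead form, 22.0% held GTAAACA and 18.2% held TGGGAA. Among the 1289 windows under a Foxc2 peak, these shares were 13.3%, 2.95% and 16.8%. The TGGGAA shares under peaks were thus below that over all windows. Windows under Foxc2 peaks were richer in CpG, with a median of 31 CpG per 300 bases against 13 over all windows, and those of Notch2 (41), Rbpj (26 and 28) and Maml3 (22) were above that overall median. So were the windows of Notch3 (25), Maml1 (24), Notch1 (23) and Jag1 (22), which no peak touched. The windows of Notch2 and Rbpj held more CpG than any untouched window of a member. That of Maml3 held as many as that of Jag1. Whether CpG content goes with coverage among the members was not tested.

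Peaks of both antibodies were found at receptor, coactivator and target genes, but unevenly, with Maml3 carrying the most. Foxc1 summits were found at 7 of the 10 members, against 29.3% of all protein-coding genes, and Foxc2 summits at 7, against 23.2%. Both antibodies were found at 6 members, Notch2, Notch4, Maml1, Maml2, Maml3 and Hes1, against 12.5% of all genes. The peaks of Maml1 and the Foxc2 peak of Maml2 lay in or nearest to other genes, as described below. Jag1 had a peak of Foxc1 alone and Rbpj a peak of Foxc2 alone. Notch1 and Notch3 had none.

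Longer genes are more likely to hold a peak. Notch2, Rbpj, Maml2 and Maml3 have spans of 100 kb or more, and 3 of these 4 carried Foxc1 and 4 of 4 carried Foxc2, beside 46.2% and 27.7% of all protein-coding genes of that length. Of the 6 shorter members, 4 and 3 had one, beside 27.1% and 22.6%. Per Mb of the windows searched, the members held 10.2 Foxc1 peaks and 7.08 Foxc2 peaks. Over the windows of all protein-coding genes there were 2.94 and 2.23 pairs of a gene and a peak. A peak near several genes counts once for each there, and windows that overlap are each counted in full. For spans of 100 kb or more, the members held 10.2 and 6.12 peaks per Mb, beside 2.61 and 1.19 such pairs. A list of 10 genes chosen with earlier results of these data known is a description, and these figures set its level beside the background without testing it.

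**Figure D1:**
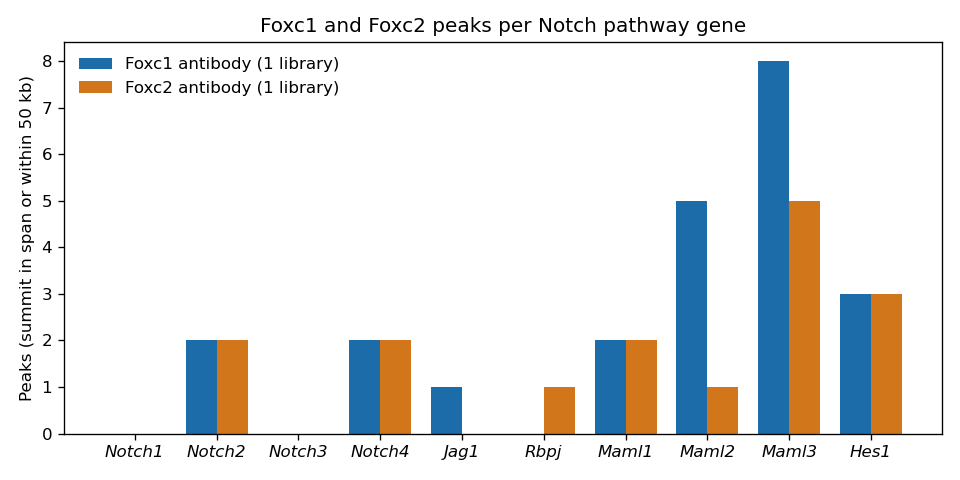
Number of Foxc1 (blue) and Foxc2 (orange) peaks per gene, with the summit in the gene span or within 50 kb of either end, from 1 library per antibody. Maml3 stands highest with 8 and 5 peaks, and Notch1 and Notch3 have none.

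Notch2, Notch4 and Maml1 had 2 peaks of each antibody, and 2.07% of protein-coding genes had at least as many of each. For the 5 Foxc1 peaks and 1 Foxc2 peak of Maml2 that share was 0.361%.

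Not every peak counted for a member lay closest to it. Of the 23 Foxc1 peaks, 16 had their summit inside the member and in no other protein-coding gene, or outside all protein-coding genes with the member's end nearest, and 7 lay in or nearer to another protein-coding gene. Of the 16 Foxc2 peaks, 11 belonged to the member by that measure and 5 did not. The genes concerned are named with each member below. Inside the members' own spans lay 14 Foxc1 and 7 Foxc2 summits.

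Among the receptors, Notch2 (chromosome 3, 98013538 to 98150367, plus strand) had 2 peaks of each antibody. A Foxc2 peak of fold 3.67 covered its start (chr3:98013299-98013625), with the summit 115 bp before the start site shown above. Fold here is the deposited enrichment at a summit relative to the local background, a value of the authors' peak caller. The stronger of the 2 Foxc1 peaks of Notch2 had a fold of 10.9 and a summit 12.6 kb into the gene (chr3:98025890-98026407), higher than 90.9% of the Foxc1 list. The nearest Foxc2 summit to it was the promoter peak, 12.8 kb away.

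The Foxc1 peak inside Notch2 covers the annotated start of Gm40103, a long non-coding RNA gene on the minus strand, whose start site lies 74 bp from the summit. All 300 bases of that window lie within the peak, which is 518 bp wide. This is the only member peak of Foxc1 of which any sequence can be shown. Capitals again mark TGGGAA, and no forkhead form was found in these 300 bases. The rest of the peak was not searched.
Gm40103, chr3:98026059-98026358, minus strand: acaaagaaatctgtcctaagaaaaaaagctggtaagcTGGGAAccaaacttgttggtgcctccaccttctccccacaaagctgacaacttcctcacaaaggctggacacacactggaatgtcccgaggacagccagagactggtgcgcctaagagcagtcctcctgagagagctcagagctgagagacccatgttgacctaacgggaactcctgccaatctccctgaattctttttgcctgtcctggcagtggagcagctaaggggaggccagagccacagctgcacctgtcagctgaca

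The other pair at Notch2 lay 47.9 kb (Foxc2) and 48.0 kb (Foxc1) beyond the far end of the gene, close to the limit of the search. Their summits were 37 bp apart, with a Foxc1 fold of 7.91 and a Foxc2 fold of 3.95. The end of Reg4 was nearer to this place, at 23.8 kb from the Foxc1 summit. The next Foxc1 summit outside the limit lay 71.0 kb from Notch2 (fold 4.59) and the next Foxc2 summit 117 kb from it (fold 3.61).

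Notch4 (chromosome 17, 34564286 to 34588543, plus strand), a receptor best known from endothelium, had 2 peaks of each antibody at 4 separate places. A Foxc1 peak of fold 6.49 had its summit 763 bp beyond the start site (chr17:34564869-34565248). This was the only Foxc1 summit within 1 kb of the start of any of the 9 members with a start site in the table, while 2.7% of protein-coding genes in that table had such a summit. A Foxc2 peak of fold 3.00, among the lowest in its list, lay inside Notch4, 974 bp from its far end. The other two lay in the neighbouring gene Pbx2, which encodes a homeodomain cofactor. The Foxc2 peak there (chr17:34591594-34592482, fold 6.19, higher than 92.6% of its list) covered the start of Pbx2, with the summit 81 bp beyond it. The Foxc1 peak (fold 7.86) lay 4.32 kb from that summit and 0.743 kb from an end of Pbx2. Genes are dense here: between 8 and 10 protein-coding genes, Notch4 included, lay within 50 kb of each of these summits.

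Notch1 (chromosome 2, 26457902 to 26503822) and Notch3 (chromosome 17, 32120820 to 32166896) had no summit of either antibody within 50 kb. The nearest Foxc1 summits lay 67.4 kb from Notch1 (fold 6.24) and 131 kb from Notch3 (fold 4.43). The nearest Foxc2 summits lay 318 kb and 265 kb away. Within 50 kb, the peaks of the receptor genes were thus at Notch2 and Notch4.

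**Figure D2:**
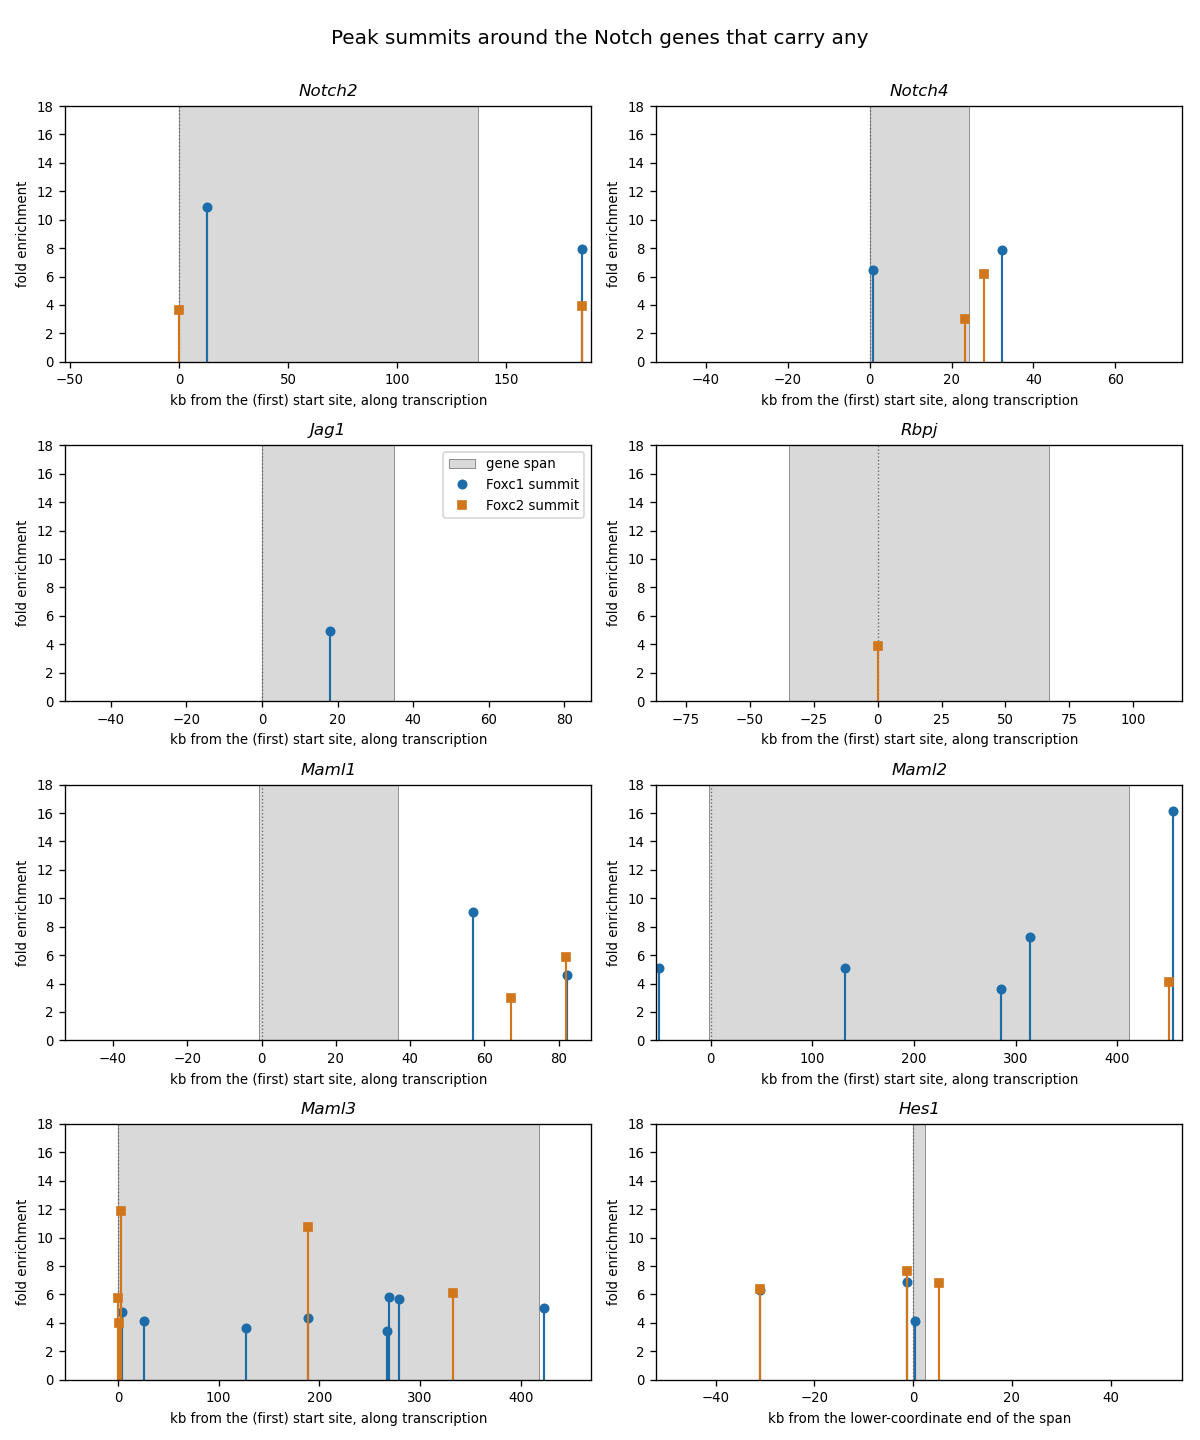
Fold enrichment of each summit (blue circles Foxc1, orange squares Foxc2) against its distance in kb from the gene's first start site along transcription, or for Hes1 from the lower-coordinate end of the span. Grey marks the gene span, and each panel reaches about 50 kb beyond it. The Maml1 peaks all lie beyond the gene, and 3 Foxc2 summits of Maml3 crowd at the start.

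The ligand gene Jag1 (chromosome 2, 137081451 to 137116520, minus strand) had 1 Foxc1 peak, inside the gene and 18.1 kb beyond its start (chr2:137098174-137098525). Its fold of 4.90 stood at the middle of the Foxc1 list, whose median was 4.90. The nearest Foxc2 summit lay 207 kb from it. Rbpj (chromosome 5, 53555779 to 53657445, plus strand), through which all Notch receptors act on DNA, had 1 Foxc2 peak of fold 3.87 (chr5:53590334-53590587) at its promoter. The summit lay 36 bp before the start site at 53590486 and 104 bp beyond the one at 53590346. The annotated span of Rbpj begins 34.7 kb before this summit, upstream of both start sites. No Foxc1 summit lay closer to Rbpj than 127 kb.

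Among the coactivators, Maml1 (chromosome 11, 50255634 to 50293131, minus strand) had 2 peaks of each antibody, none inside the gene. They lay between 20.3 and 45.5 kb beyond its far end, in or near Sqstm1, an autophagy receptor gene, and Mgat4b, a glycosyltransferase gene. A Foxc1 peak of fold 4.59 and a Foxc2 peak of fold 5.85 overlapped inside Sqstm1, with summits 150 bp apart and within 1 kb of an end of that gene. The stronger Foxc1 peak (chr11:50235197-50235568, fold 9.02) lay 0.275 kb from an end of Mgat4b. A weak Foxc2 peak (fold 3.00) lay 0.119 kb from its opposite end, at the start of the long non-coding RNA gene Gm36556. By nearest gene, Maml1 would have had no peak.

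Maml2 (chromosome 9, 13296561 to 13709533, plus strand) had 5 Foxc1 peaks and 1 Foxc2 peak. The 3 Foxc1 peaks inside this long gene had folds of 5.06, 3.64 and 7.28. None of the 6 lay within 50 kb of either of its start sites. The Foxc1 peak of highest fold among those of the members lay outside it, 43.2 kb beyond the far end, inside Mtmr2, a phosphatase gene (chr9:13752501-13752984). It had a fold of 16.1, higher than 96.4% of its list. The Foxc2 peak lay 3.51 kb from it (fold 4.13) and covered the start of Mtmr2, with the summit 39 bp beyond that start. The Foxc1 peak on the other flank (fold 5.06) lay inside Ccdc82, 49.0 kb from Maml2, the farthest of all the peaks counted. Just outside the limit of 50 kb lay a Foxc2 peak of fold 5.33, 52.1 kb from Hes1, and a Foxc1 peak of fold 4.57, 52.5 kb from Notch4.

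Maml3 (chromosome 3, 51687320 to 52105319, minus strand) had 8 Foxc1 and 5 Foxc2 peaks, and 12 of these 13 summits lay inside the gene. Counting Maml3 itself, 6 protein-coding genes (0.0274%) had at least as many peaks of each antibody. The Foxc2 peaks were the stronger within their list. Near the start, 3 Foxc2 summits lay 59 bp, 792 bp and 2.79 kb beyond the start site, with folds of 5.75, 3.95 and 11.9. The last of them (chr3:52101952-52103013) ranked 8 in the Foxc2 list. The first covered the promoter shown above (chr3:52104595-52105283).

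A Foxc2 peak in the middle of Maml3, 189 kb from the start (chr3:51916019-51916708), had a fold of 10.7 and ranked 12 in its list. The fifth, 333 kb from the start, had a fold of 6.13. The Foxc1 peaks of the gene were modest, with folds from 3.44 to 5.82, and 3 of the 8 were above the list median of 4.90. A Foxc1 peak of fold 4.38 overlapped the Foxc2 peak in the middle of the gene, with summits 98 bp apart. Another, of fold 4.75, lay 1.01 kb from the strongest Foxc2 summit and did not overlap it. The remaining Foxc1 peaks inside the gene stood alone, 23.3 kb or more from any Foxc2 summit. The 1 outside lay in Mgst2, a glutathione transferase family gene, 5.65 kb past the far end of Maml3 (fold 5.06).

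The genes most like Maml3 in their counts, by the summed difference over both antibodies, were Tmod2 with 8 Foxc1 and 6 Foxc2 peaks, Lrmda with 10 and 5, Arrb1 with 6 and 5, Tmod3 with 8 and 7, and Mcc with 5 and 5. Mcc is 1 of 13 genes tied at a difference of 3 and is named because its span is closest in length to that of Maml3. Tmod2 and Tmod3 share 6 peaks of each antibody, so they are not separate cases. This likeness rests on 2 libraries.

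Hes1 (chromosome 16, 30065357 to 30067796), a classical target of Notch signalling, is a gene of 2.44 kb with 3 peaks of each antibody. All 6 summits lay near no other protein-coding gene: Hes1 was the only protein-coding gene within 50 kb of each. Of all protein-coding genes, 0.439% had at least as many peaks of each antibody. Distances are given from the ends of the span, since no start site of Hes1 was used.

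At 31.1 kb before the lower-coordinate end of Hes1, a Foxc1 peak of fold 6.33 (chr16:30034066-30034471) and a Foxc2 peak of fold 6.36 (chr16:30034077-30034513) had summits 9 bp apart, inside the span of the non-coding gene 9030404E10Rik. Close to the same end, a Foxc1 summit of fold 6.88 lay 1.21 kb outside the gene and a Foxc2 summit of fold 7.67 lay 1.32 kb outside it. Those 2 peaks overlapped by 434 bp, the whole width of the Foxc1 peak, and the Foxc2 peak was 1323 bp wide, the widest among those of the members. The third Foxc1 peak lay inside Hes1, 289 bp from that end, with a fold of 4.11. The third Foxc2 peak lay 2.71 kb beyond the opposite end, with a fold of 6.78 and the nearest Foxc1 summit 4.86 kb away. The 3 Foxc2 peaks of Hes1 were higher than 93.6, 95.3 and 97.4% of their list, and its Foxc1 peaks were higher than 22.7, 71.8 and 77.1% of theirs.

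**Figure D3:**
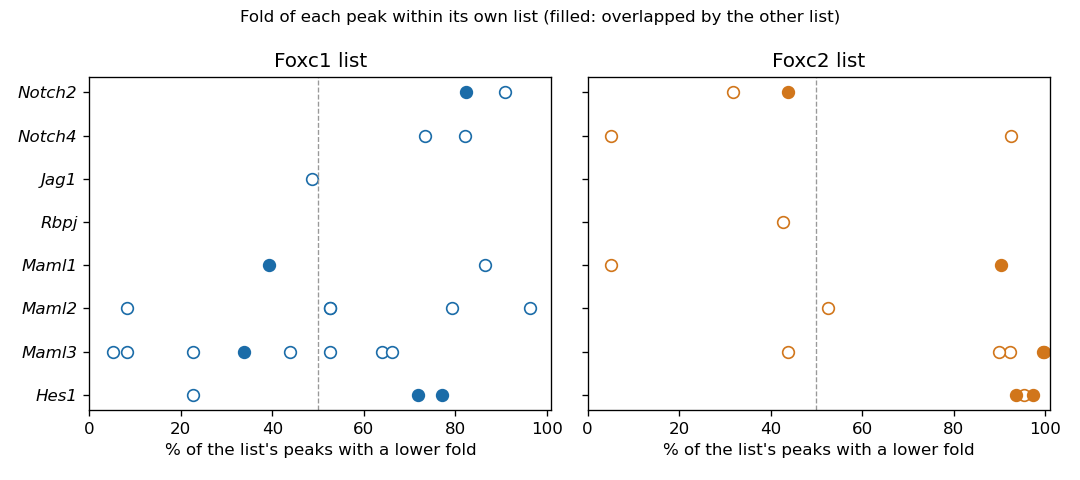
For each peak, the percentage of peaks in its own list with a lower fold, by gene, with filled circles for peaks overlapped by the other antibody's list and a dashed line at 50%. Foxc2 peaks of Hes1 and most of those of Maml3 sit at the right edge, while the Foxc1 peaks spread over the range.

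Taking all members together, Foxc2 peaks of high fold for their list lay at Maml3, Hes1, Pbx2 and Sqstm1. The 16 Foxc2 peaks had a median fold of 5.80, from 3.00 to 11.9, beside a median of 3.97 over the Foxc2 list. A fold of 5 or more was reached by 9 of the 16 (56.2%), beside 18.1% of that list, and 8 of 16 were in the top 10% of it. The 23 Foxc1 peaks had a median of 5.06, from 3.44 to 16.1, beside 4.90 over the Foxc1 list. A fold of 5 or more was reached by 14 of them (60.9%), beside 47.9%, and 2 were in the top 10%, those of fold 10.9 in Notch2 and 16.1 beside Maml2. Of the 9 Foxc2 peaks of fold 5 or more, 4 were at Maml3, 3 at Hes1, 1 at Pbx2 beside Notch4 and 1 at Sqstm1 beside Maml1. Folds are ranked within a list only, since the libraries may differ in depth and background.

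The antibodies met at 5 places. A Foxc2 peak shared at least 1 bp with 5 of the 23 Foxc1 peaks (21.7%, Clopper-Pearson exact interval at 95% of 7.46 to 43.7%), beside 8.20% of all Foxc1 peaks. Conversely, 5 of the 16 Foxc2 peaks were overlapped (31.2%, interval 11.0 to 58.7%), beside 14.8% of all Foxc2 peaks. These intervals cover counting error only and treat the peaks as independent, although several lie at the same gene. Each includes the share of its whole list, but the difference was not tested. The places were 2 at Hes1 and 1 each at Maml3, Maml1 and Notch2, so 4 of the 10 members held one, beside 3.39% of protein-coding genes. Overlaps ran from 229 to 567 bp and the summits lay 9 to 150 bp apart. By nearest gene, only those of Hes1 and Maml3 would have counted.

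**Figure D4:**
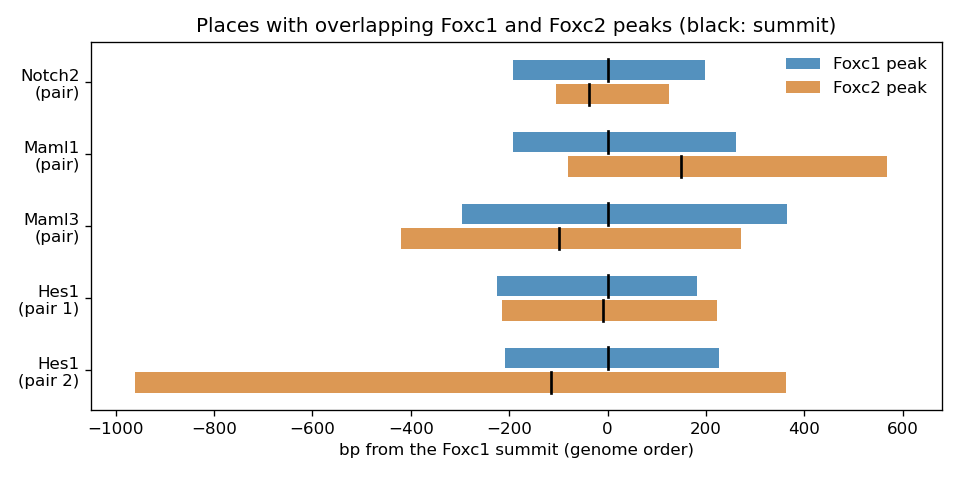
The 5 places where peaks of both antibodies overlapped, drawn in bp from the Foxc1 summit, with bars for the width of each peak and black lines for the summits. The Hes1 summits of the distal place nearly coincide, 9 bp apart, and the Foxc2 peak nearest to Hes1 reaches far beyond its Foxc1 counterpart.

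At the own start sites of the members with one in the table lay 4 Foxc2 summits and 1 Foxc1 summit. Hes1, without a start there, is not counted, although a Foxc1 summit lay inside it, 289 bp from its lower-coordinate end. Of 13 Foxc2 summits at members with a start site in the table, 4 lay within 1 kb of the start, 2 of them at Maml3 and 1 each at Notch2 and Rbpj. Of 20 Foxc1 summits 1 did, at Notch4. Over all pairs of a protein-coding gene and a peak, 26.8% of Foxc2 and 6.36% of Foxc1 summits did. By gene, 3 of 9 members had a Foxc2 summit there, beside 8.36% of protein-coding genes. The order of the antibodies at the members was that of the lists as a whole.

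The rest of the Notch pathway was described from 42 further genes. A Foxc1 summit was found at 16, a Foxc2 summit at 12, both at 6 and neither at 20, so that the shares with Foxc1 and Foxc2 are 38.1% and 28.6% beside the 29.3% and 23.2% of all protein-coding genes. Of 6 other ligand genes, Dll3 had 1 Foxc2 peak, 37.0 kb from an end, and the other 5, Dll4 and Jag2 among them, had no peak. Of 8 genes for the proteases that cut the receptors, Psen2 had a Foxc1 peak and Aph1a a Foxc2 peak, and 6 had none. Of 8 genes of receptor turnover, 5 had a Foxc1 peak and 1 a Foxc2 peak. Numb, which encodes an inhibitor that removes Notch from the cell surface, had 5 Foxc1 peaks with folds from 4.59 to 14.0 and no Foxc2 peak. Its relative Numbl had 2 Foxc1 peaks and no Foxc2 peak.

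Of 7 coregulator genes, 3 had Foxc1 and 3 had Foxc2 peaks. Spen, which encodes a corepressor that keeps Rbpj targets silent, had 3 peaks of each antibody, with no overlap between the antibodies. The folds reached 10.6 for Foxc1 and 4.67 for Foxc2. Neurl1a, a ubiquitin ligase gene acting on ligands, had an overlapping pair, with a Foxc1 fold of 8.39 and a Foxc2 fold of 9.11, and a further Foxc2 peak of fold 3.83. Of 5 other targets of the pathway, 3 had a Foxc1 and 2 a Foxc2 peak. Heyl had 2 Foxc1 peaks, of folds 4.71 and 4.11, and Nrarp, a feedback inhibitor, had 1 of each antibody at folds of 3.96 and 3.67. Of 5 genes for glycosylation of the receptors, 2 had a Foxc1 and 2 a Foxc2 peak, and Poglut1 had 1 of each (folds 4.27 and 2.78). None of these 5 targets had as many peaks as Hes1.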

How the data were processed

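ChIP-seq peaks of 1 Foxc1 and 1 Foxc2 library of mouse glomeruli were analysed, grouped by sample title. Per the submitters' processing notes, Bowtie2 was the aligner, mm10 the build and MACS2 the peak caller. For their versions, settings, filters and control, the sources used here give nothing. The deposited lists give, per peak, the fold enrichment (a ratio to local background), −log10 p-values and q-values, a score and a summit offset. The deposited score, 10 times the −log10 q, was not used. Depth is unknown.

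Gene spans and start sites came from RefSeq tables of GRCm38.p6, which is the mm10 assembly. Exons, introns and a genome sequence were not used, so motifs were searched in promoter windows and not in peaks. A start site is that of the promoter table. Peaks on other sequences were left out. Overlap needed 1 shared bp. The shares of member peaks overlapped by the other list carry Clopper-Pearson exact intervals at 95% (scipy 1.17.1). Other shares are given without an interval. The assignment and overlap steps were checked on simulated data. The members and lists were chosen with earlier results of these data known. Named were all members, every gene holding or nearer to a member peak, up to 8 further pathway genes with the most peaks (1 of which is not reported here, although it stayed in the counts; others named after their values were seen are Psen2, Aph1a, Dll3, Dll4 and Jag2), and the 5 genes most like Maml3. Alternatives covered the distance, the assignment to 1 gene, peak thresholds, overlap and start distance.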

Additional observations from a re-analysis of the deposited data

How the results depend on the processing

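Of 56 values recomputed under other settings, 36 stayed within 1.5 times the reported count. With gene spans only, the members' Foxc1 peaks fell from 23 to 14 and their Foxc2 peaks from 16 to 7, members with a Foxc2 peak from 7 to 3, members with both antibodies from 6 to 2, and overlapped peaks from 5 to 1 in each list. With summits within 10 kb, 2 were overlapped in each list. With peaks of fold 5 or more, there were 14 Foxc1 and 9 Foxc2 peaks, 4 members with a Foxc2 peak, 2 overlapped peaks in each list and 1 Foxc2 summit within 1 kb of a start in place of 4. With a q-value of 1e-05 or less, 10 Foxc2 peaks were left. With 1 gene per peak, 6 members had a Foxc1 peak, 5 a Foxc2 peak and 4 both. At that setting, and with summits within 100 bp as the definition of overlap, 3 peaks were overlapped in each list. With starts taken within 500 bp, 0 Foxc1 summits were left in place of 1, Hes1 not being counted. These settings keep fewer peaks by construction. No shares over all protein-coding genes are given at these settings, so the counts cannot be set against the shares given above for 50 kb. Motif counts in peaks, with their alternatives, were not run, since no genome sequence was used. The motif search in promoters was chosen after seeing the data: GTAAACA or TAAACA alone gave 2 windows of members in place of 3. Depth limits what a missing peak can show.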

Other observations

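Many peaks of a list carried the same fold. The 5207 Foxc1 peaks took 597 distinct folds and the 2878 Foxc2 peaks 323, and 22 of the 23 Foxc1 peaks and 12 of the 16 Foxc2 peaks of the Notch genes shared their fold with another peak of the list. Ranks among peaks of middling fold are therefore coarse, 3 Foxc1 peaks of Maml2 and Maml3 having the same fold of 5.06.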
